A study of Mus musculus with 27 samples.

Results

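Genes of the germline and of meiosis were followed in striatal neurons that had lost the histone methyltransferase G9a. The members are 32 gene symbols listed by name. No cut on a measured value selected them, but the list was made with earlier results of these data known. Of these, 30 were represented on the arrays by a probe set that the array annotation pairs with that symbol alone, and each was followed through the probe set that was brightest on average across the 27 arrays, with no filter on level. Tdrd6 and Nanos2 had no such probe set and are not analysed here. The same rule gave 18193 genes in all.

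Germ cells run a programme that other cells keep shut: proteins that fix germ cell fate, proteins that pair and recombine chromosomes in meiosis, and the PIWI proteins with their small RNAs, which silence transposons. In other cells these genes are held silent by DNA methylation, by H3K9 methylation and by a variant Polycomb complex that contains E2F6, MGA and MAX. G9a, encoded by Ehmt2, places H3K9 methylation together with its partner GLP, and its loss is known to release germline genes in embryonic stem cells.

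Ribosome-bound RNA was purified from striatum by translating ribosome affinity purification (TRAP), in which the ribosomal protein L10a is fused to GFP in a single neuron type and its ribosomes are pulled down with antibodies to GFP. All mice were males of 2 to 5 months on a mixed background of C57BL/6 (the G9a line) and 129/Sv (the BAC lines), with 2 generations of backcrossing to C57BL/6. All carried floxed alleles on both copies of G9a (G9a fl/fl) and the TRAP tag. The D1 controls (Drd1-TRAP; G9a fl/fl) gave 2 saline and 4 cocaine arrays, and the D1 mutants (Drd1-TRAP; Drd1-Cre; G9a fl/fl) gave 3 saline and 4 cocaine arrays. The D2 controls (Drd2-TRAP; G9a fl/fl) gave 3 saline and 4 cocaine arrays, and the D2 mutants, whose labels read Drd-TRAP; Drd2-Cre; G9a fl/fl, gave 3 saline and 4 cocaine arrays. Cocaine was given as 8 injections at 20 mg/kg/day, and tissue was taken 2 h after the last of them. Cre was driven by the promoter of the same dopamine receptor that marks the cells, and control mice had no Cre, so G9a loss and the Cre transgene cannot be told apart. A tagged cell that escaped recombination would still contribute RNA. Replicates were different mice, and the p-values below weigh a difference against the spread from mouse to mouse.

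Values are log2 levels on Affymetrix arrays, processed together by the authors. Array medians lay between 5.70 and 5.82. No zero is defined on this scale, so a level of 6 was used as a floor, and a gene is said to leave background when its control mean was under 6 and its mutant mean 6 or more. Ehmt2 itself was 9.95 to 10.74 in the 6 D1 controls and 8.03 to 9.37 in the 7 D1 mutants, and 10.67 to 11.01 in the 7 D2 controls against 8.68 to 9.38 in the 7 D2 mutants, so mutant arrays were lower without overlap in both subtypes. It fell by 1.79 (SE 0.133, adjusted p = 2.66e-10) in D1 and by 1.82 (SE 0.124, adjusted p = 2.68e-11) in D2 neurons in the limma fit over all genes. With the mean of all its probe sets in place of the brightest, it fell by 1.03 in D1 and by 1.1 in D2. The mean level of 9 D1 neuron markers was 9.89 to 10.66 in D1 arrays and 7.15 to 7.91 in D2 arrays, and that of 6 measured D2 markers was 11.58 to 11.98 in D2 arrays and 6.82 to 7.24 in D1 arrays, so each array carried the markers of its labelled type. The D2 mutant cocaine array with replicate number 4 is described as a control in its source name. Its genotype label names the Cre, its Ehmt2 level of 8.96 lay among the mutants, and it was kept as a mutant.

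None of the 30 measured members left background after G9a loss, in either neuron type. Over all genes, 0.753% did so in D1 and 0.978% in D2 neurons. Of the genes whose control mean was under the floor (37.4% of all in D1, 37.7% in D2), 2.01% left background in D1 and 2.6% in D2, and 2.16% and 3.37% rose with an adjusted p under 0.05. In control mice, 26 of the 30 members had means under 6 in both control groups. The other 4, Dazl, Brdt, Rec8 and Syce2, lay above it in every group mean. The 39 olfactory receptor genes on the arrays, which serve as a description of silent genes, had a median level of 4.7 and a 95th percentile of 6.27, and 10.3% of them had a mean over 6. The median level of the 30 members was 4.79, against 6.98 over all genes, of which 62.6% had a mean over 6. These medians describe probe sets, whose levels also depend on how well each probe binds.

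**Figure D1:**
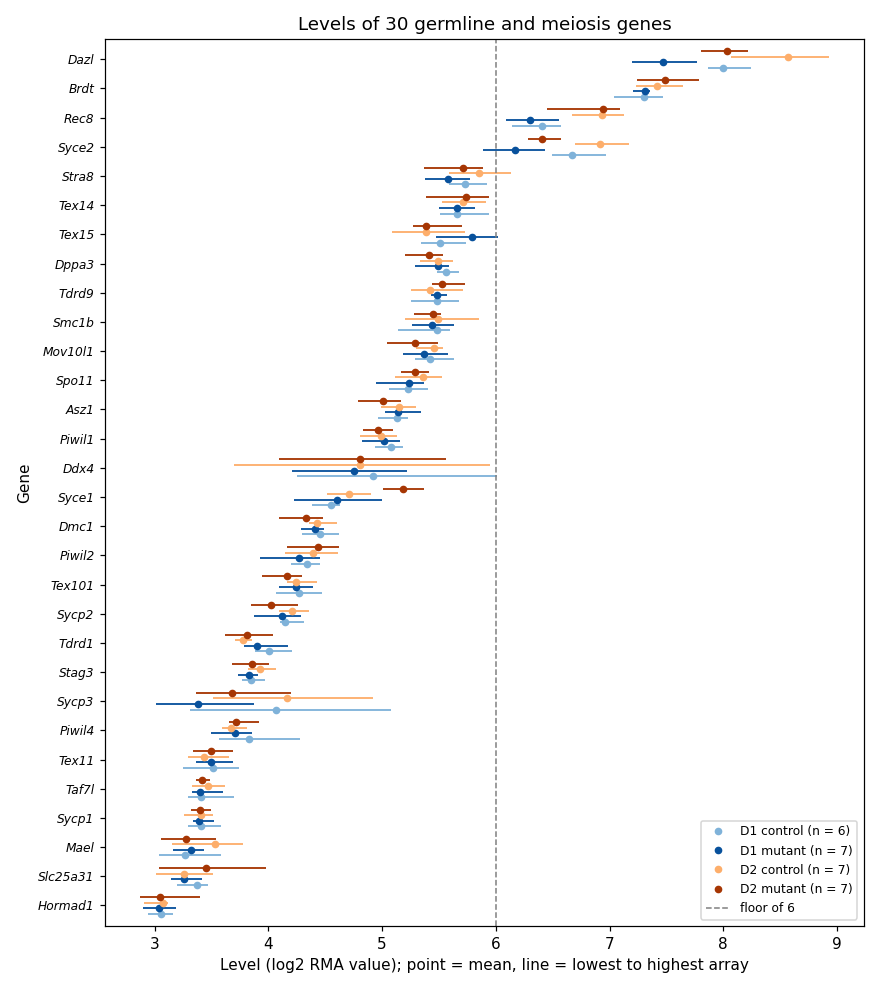
Levels of the 30 measured germline and meiosis genes (log2 RMA value, horizontal axis) in D1 controls, D1 mutants, D2 controls and D2 mutants; points are means, lines run from the lowest to the highest array, and the dashed line is the floor of 6. 4 genes (Dazl, Brdt, Rec8, Syce2) have all their group means above the floor, and no gene moves from below to above it in mutants.

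In D1 mutants 0 of the 30 members rose and 2 fell, Dazl and Syce2, with an adjusted p under 0.05 in limma over all genes. The same test called 2.35% of all genes higher and 0.759% lower, 3.11% in either direction. In D2 mutants 1 member rose, Syce1, and 2 fell, again Dazl and Syce2. Over all genes, 5.84% were called higher and 2.64% lower, 8.48% in either direction. At an unadjusted p under 0.05, 1 member was higher and 3 were lower in D1, and 1 was higher and 7 were lower in D2. The lower members made up 10% of the 30 in D1 and 23.3% in D2, against 4.67% and 8.62% of all genes, and the higher ones 3.33% in each, against 6.87% and 12.6%. The median change of the members was -0.043 in D1 and -0.046 in D2 neurons, against -0.003 and -0.007 over all genes. The change was above 0 for 6 members (20%) in D1 and for 11 (36.7%) in D2, against 48.8% and 47.8% of all genes. Among the further germline and meiosis genes described below the shares were 37.5% and 35.7%, and among late spermatid and sperm genes 25% and 18.8%. Among the oocyte genes they were 38.5% and 53.8%. A share below that of all genes was therefore not particular to the members. D1 and D2 mutants were each compared with controls of their own subtype.

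The members that did not pass gave intervals that bound any rise. In D1 neurons 28 members did not pass, with changes from -0.64 (Sycp3) to 0.29 (Tex15), and the upper end of the 95% interval was under 0.5 for 27 of them. In D2 neurons 27 did not pass, with changes from -0.54 (Sycp3) to 0.17 (Slc25a31), and the upper end was under 0.5 for 26. The exception in both subtypes was Ddx4, the germ cell RNA helicase also called vasa, with upper ends of 0.56 and 0.61. The median distance from the estimate to either end of the interval was 0.17 in D1 and 0.16 in D2. Near the floor the array signal changes less than the RNA does, so these bounds hold for the array signal.

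**Figure D2:**
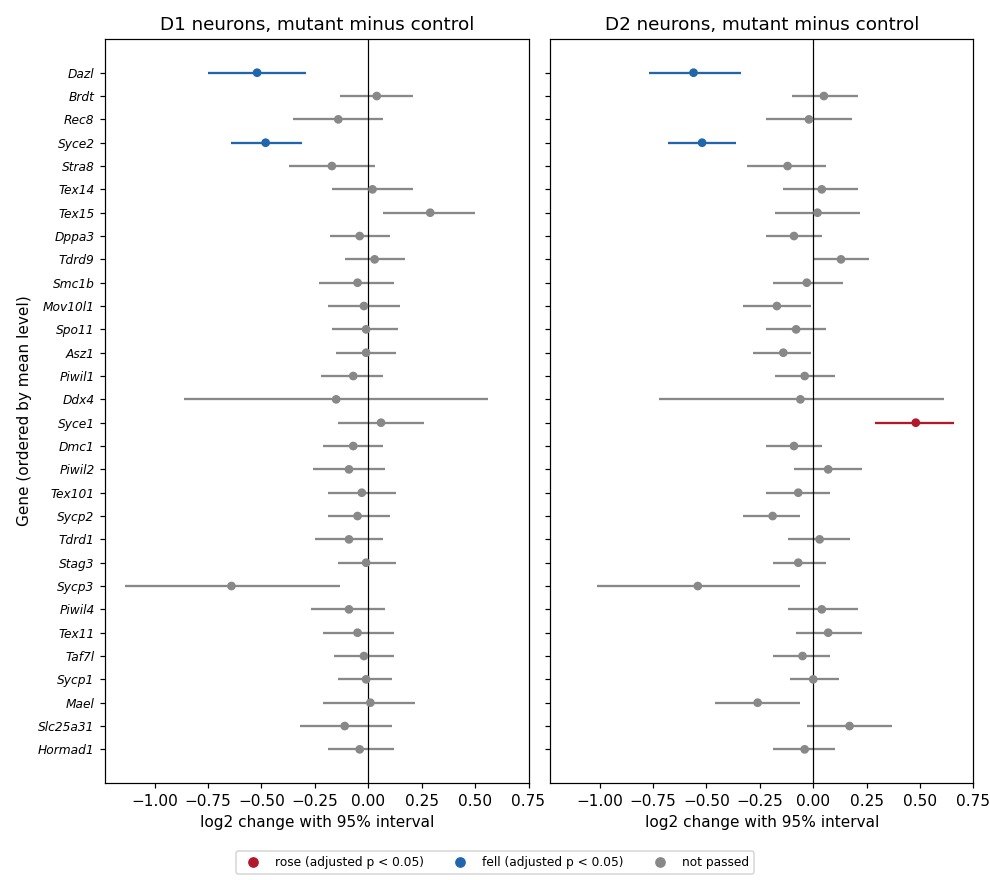
Mutant minus control change of each of the 30 genes (horizontal axis, log2 scale) in D1 and D2 neurons, with the 95% interval as a line; the vertical axis lists the genes, and colour marks genes with an adjusted p under 0.05. Dazl and Syce2 lie below 0 in both neuron types (-0.52 and -0.48 in D1, -0.56 and -0.52 in D2), and Syce1 lies above 0 in D2 neurons (0.48).

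Dazl, which encodes an RNA-binding protein that controls translation in germ cells, lay above the floor in all 27 arrays and fell in both mutants. Its level in D1 controls was 7.87 at the lowest, 7.94 at the median and 8.24 at the highest, and in D1 mutants 7.20, 7.46 and 7.77. Every D1 mutant array was therefore below every D1 control array, a separation in that direction that 0.5% of all genes showed. The decrease was 0.52 (SE 0.112, adjusted p = 0.00546), from a mean of 8.0 ± 0.15 (SD, n = 6) to 7.47 ± 0.21 (SD, n = 7), or 1.43-fold, in the limma fit.

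In D2 controls Dazl was 8.07 at the lowest, 8.60 at the median and 8.93 at the highest, and in D2 mutants 7.80, 8.04 and 8.22. The ranges overlapped, through the D2 control cocaine array with replicate number 1 at 8.07. The mean went from 8.57 ± 0.28 (SD, n = 7) to 8.03 ± 0.13 (SD, n = 7), and Dazl fell by 0.56 (SE 0.105, adjusted p = 0.000757, limma), or 1.47-fold. A further probe set for Dazl had means of 7.17 and 6.73 in D1 controls and mutants and of 7.50 and 7.04 in D2. In a limma fit over every probe set, it had a difference of -0.41 (adjusted p = 0.12) in D1 and fell by 0.45 (adjusted p = 0.0217) in D2 neurons. Both probe sets were thus lower in both mutants, and in D1 neurons only the brighter of them passed on its own. With the mean of all its probe sets, the limma change of Dazl was -0.46 (adjusted p = 0.00887) in D1 and -0.5 (adjusted p = 0.00132) in D2. With the arrays of 1 drug alone, Dazl did not pass in D1 (-0.53, adjusted p = 0.0829 on saline, and -0.51, adjusted p = 0.1 on cocaine) or on cocaine arrays in D2 (-0.47, adjusted p = 0.0858).

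Syce2, a component of the central element of the synaptonemal complex that holds paired chromosomes together, was the only member without overlap between genotypes in both subtypes. D1 controls lay at 6.49, 6.64 and 6.97 (lowest, median, highest) and D1 mutants at 5.89, 6.17 and 6.43. D2 controls lay at 6.70, 6.94 and 7.17, and D2 mutants at 6.28, 6.39 and 6.57. Every mutant array of a subtype was below every control array of that subtype, as for 0.5% of all genes in D1 and 0.846% in D2. How many of all genes showed this in both subtypes was not counted. The decrease was 0.48 (SE 0.0816, adjusted p = 0.000386) in D1 and 0.52 (SE 0.0763, adjusted p = 2.92e-05) in D2 neurons in the limma fit, or 1.39-fold and 1.43-fold. Of the 27 arrays, 26 were at or over the floor, and 1 D1 mutant saline array was under it at 5.89. On saline arrays alone the D1 change was -0.47 (adjusted p = 0.0686).

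Syce1, which encodes another central element protein, had a mutant range above the control range in D2 neurons. Its level was 4.52, 4.72 and 4.90 in D2 controls and 5.01, 5.22 and 5.37 in D2 mutants, and 2.59% of all genes showed such a separation. It rose by 0.48 (SE 0.0911, adjusted p = 0.000845, limma), and all 14 of these values were under the floor. On saline arrays alone the change was 0.48 (adjusted p = 0.102). In D1 neurons it was 4.38, 4.58 and 4.63 in controls and 4.23, 4.58 and 5.00 in mutants, a change of 0.06 (adjusted p = 0.887). The separation seen in D2 was absent from D1 arrays, where 1.43% of all genes had every mutant array above every control array. The difference of the effects, D2 less D1, was 0.41 (SE 0.133, adjusted p = 0.202), so a difference between the neuron types was not shown.

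Some markers of other cell types also rose in D2 mutants. Of 7 measured oligodendrocyte markers, 5 rose in D2 mutants (Mbp by 0.54, Mog by 0.47, Mobp by 0.60, Cnp by 0.31 and Ugt8a by 0.80) and 0 rose in D1 mutants. Their mean level per array was 7.02 to 7.89 in D2 controls and 7.98 to 8.34 in D2 mutants, and their summed linear signal was 11.42 to 12.36 and 12.37 to 12.76 on the log2 scale. With that mean level as a covariate, Syce1 rose by 0.52 (adjusted p = 0.0114) in D2 mutants, and Dazl and Syce2 fell in both mutants. As the level did not overlap between D2 controls and D2 mutants, this fit cannot separate it from genotype in D2 neurons. Of the 9 D1 neuron markers, 4 also rose in D2 mutants (Drd1 by 0.54, Isl1 by 0.98, Zfp521 by 1.04 and Slc35d3 by 0.56), with a median change of 0.253 over the list, and 1 rose in D1 mutants (Zfp521 by 0.25). Their mean level per array was 7.15 to 7.67 in D2 controls and 7.64 to 7.91 in D2 mutants, against 9.89 or more in every D1 array. Of the 6 measured D2 neuron markers, 1 fell in D2 mutants (Drd2 by 0.49) and 0 in D1 mutants in limma, with 2 lower in D1 at an unadjusted p under 0.05. Of the other marker lists, 1 of 7 astrocyte genes rose in D2 mutants (Gja1 by 0.62). Of 9 ependyma and choroid plexus genes, 2 rose in each mutant, Kl (1.55 in D1 and 2.23 in D2) with Rsph1 (0.27) in D1 and Clic6 (0.44) in D2. Of the remaining lists, 0 of 7 microglia and 0 of 7 endothelial genes rose in either in limma, with 2 microglia genes higher in D2 at an unadjusted p under 0.05. In bulk RNA of this kind, fewer cells of a type and less RNA per cell cannot be told apart. Zfp941 is a zinc finger gene and the next measured gene to Syce1 on its chromosome. It rose by 1.16 (adjusted p = 1.71e-05) in D1 and by 1.37 (adjusted p = 2.17e-07) in D2 neurons in limma. The part of the neuron markers and of Zfp941 in the rise of Syce1 was not tested.

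**Figure D3:**
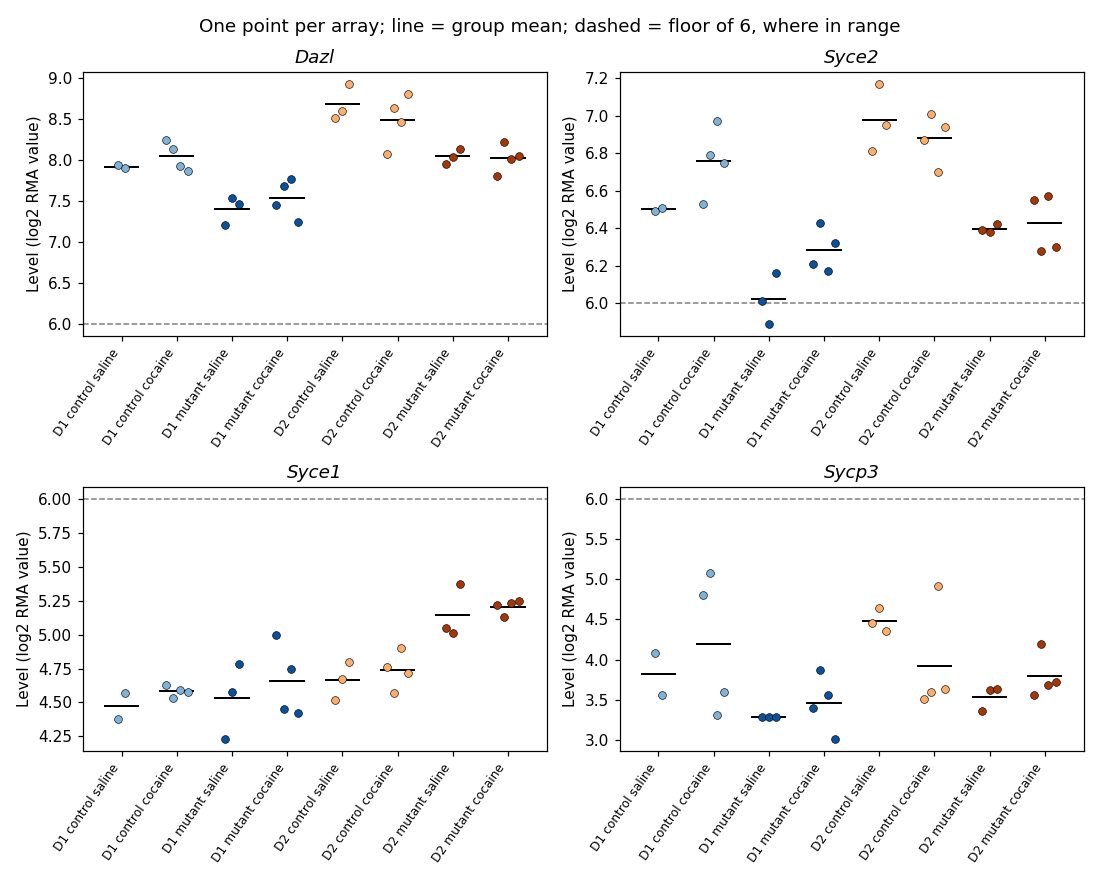
Levels (log2 RMA value, vertical axis) of Dazl, Syce2, Syce1 and Sycp3 in every array, by group of subtype, genotype and drug; lines are group means and the dashed line is the floor of 6. Dazl and Syce2 are lower in mutants of both subtypes under both drugs, Syce1 is higher in D2 mutants (5.01 to 5.37) and stays under the floor, and single arrays of Sycp3 spread from 3.01 to 5.08.

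The promoters of the 3 members that passed are shown because sequence in this window is where E2F6 and the pair of MGA and MAX are known to bind. Each line holds the 250 bases upstream of the annotated start from RefSeq on GRCm38.p6, 5′ to 3′ on the strand of the gene: Dazl chr17:50293621-50293870 on the minus strand, Syce1 chr7:140787855-140788104 on the minus strand and, for the 2 starts listed for Syce2, chr8:84871861-84872110 and chr8:84872008-84872257 on the plus strand. The windows of Syce2 overlap. Capitals mark matches, on either strand, to TCCCGC, the core bound by E2F6, and to CACGTG, an E-box bound by MGA and MAX. The 2 motifs do not overlap each other.
Dazl: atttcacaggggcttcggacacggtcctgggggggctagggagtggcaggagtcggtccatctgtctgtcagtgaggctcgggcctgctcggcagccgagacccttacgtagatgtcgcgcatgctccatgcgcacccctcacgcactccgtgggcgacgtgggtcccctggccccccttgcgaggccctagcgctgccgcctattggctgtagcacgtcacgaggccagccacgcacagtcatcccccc
Syce1: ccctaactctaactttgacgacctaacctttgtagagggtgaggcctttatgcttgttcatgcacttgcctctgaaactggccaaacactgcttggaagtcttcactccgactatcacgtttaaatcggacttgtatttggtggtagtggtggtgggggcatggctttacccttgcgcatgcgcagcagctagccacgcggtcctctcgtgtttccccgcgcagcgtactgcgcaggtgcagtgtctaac
Syce2, upstream start: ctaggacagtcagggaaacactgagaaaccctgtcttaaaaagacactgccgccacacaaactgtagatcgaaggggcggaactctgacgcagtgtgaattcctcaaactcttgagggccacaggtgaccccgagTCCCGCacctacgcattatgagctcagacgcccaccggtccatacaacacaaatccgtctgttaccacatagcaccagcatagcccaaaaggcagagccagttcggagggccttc
Syce2, downstream start: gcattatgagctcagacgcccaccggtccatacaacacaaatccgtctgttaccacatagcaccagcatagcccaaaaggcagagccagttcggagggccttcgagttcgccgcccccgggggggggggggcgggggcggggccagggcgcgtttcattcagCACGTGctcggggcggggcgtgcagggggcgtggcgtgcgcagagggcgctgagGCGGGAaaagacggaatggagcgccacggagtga
Neither motif was found in the windows of Dazl and Syce1. Both were found in the window of the downstream start of Syce2, and that of the upstream start held TCCCGC alone.

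Over the full windows of 300 bases, which add 50 bases after the start, 26 of the 32 listed genes could be matched, and a gene with several starts was counted if any of them held the motif. CACGTG occurred in 14 of them (53.8%), against 8.09% of 27025 genes in the promoter table and 10.2% of 14452 genes that are also on the arrays. TCCCGC occurred in 12 members (46.2%), against 22% and 32.9%, and at least 1 of the motifs in 18 (69.2%), against 27.5% and 38.9%. The median number of CG dinucleotides per gene was 19.5 for members and 18 for genes on the arrays. Among genes with at least 10 CG, a limit set after these values were seen, CACGTG occurred in 56% of members and 12.6% of array genes, and TCCCGC in 48% and 44.2%. Of the 18 measured members with either motif, 0 rose and 1 fell, Syce2, in each subtype. Of the 7 measured members in the table with neither, 1 fell in D1 (Dazl), and 1 rose (Syce1) and 1 fell (Dazl) in D2. A match describes letters in a window and does not show binding.

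Genes that fix germ cell fate or commit cells to meiosis did not rise. Stra8, which is induced by retinoic acid before meiosis, had means of 5.73 and 5.58 in D1 controls and mutants and of 5.85 and 5.71 in D2. Dppa3, which protects the maternal genome from demethylation in the early embryo, was 5.56 and 5.49 in D1 and 5.49 and 5.41 in D2. Ddx4 had the widest range of any member over the arrays. Its arrays ran from 4.25 to 6.01 in D1 controls and from 3.70 to 5.95 in D2 controls, and its means of 4.81 in D2 controls and 4.81 in D2 mutants were equal.

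Of the synaptonemal complex and axis genes outside Syce1 and Syce2, Sycp3 had the largest differences and did not pass. Sycp3 forms the lateral elements along each meiotic chromosome. D1 controls were 3.31, 3.84 and 5.08 (lowest, median, highest) and D1 mutants 3.01, 3.29 and 3.87; D2 controls were 3.51, 4.36 and 4.92 and D2 mutants 3.36, 3.63 and 4.20. The ranges overlapped in both subtypes, and the highest values came from control arrays: 4.80 and 5.08 in 2 of the 6 D1 controls, and 4.36 or more in 4 of the 7 D2 controls. The change was -0.64 (adjusted p = 0.245) in D1 and -0.54 (adjusted p = 0.172) in D2 neurons in limma. With the mean level of the oligodendrocyte markers as a covariate, it fell by 1.07 (adjusted p = 0.0179) in D2. There the covariate cannot be separated from genotype, as its D2 control and mutant ranges did not overlap. Without 3 arrays that had a high level of the choroid plexus transcript Ttr, the change of Sycp3 was -0.78 (adjusted p = 0.0247) in D1. In D2 it was -0.37 (adjusted p = 0.213). In D2 neurons it was -0.95 (adjusted p = 0.000785) on saline arrays alone and -0.12 (adjusted p = 0.923) on cocaine arrays alone.

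Sycp1, the transverse filament of the complex, stayed between 3.26 and 3.58 in all arrays, and Hormad1, which marks unpaired axes, between 2.87 and 3.40. Differences are mutant less control on the log2 scale, and where a pair is given, D1 comes before D2. Sycp2, the partner of Sycp3, had a difference of -0.05 (adjusted p = 0.887) in D1 and of -0.19 (adjusted p = 0.0726) in D2. The meiotic cohesin subunits did not pass in either mutant. Rec8, the cleavable subunit, had a difference of -0.14 in D1 and of -0.02 in D2, Stag3 of -0.01 and -0.07, and Smc1b of -0.05 and -0.03. Spo11, which makes the breaks that start recombination, had differences of -0.01 and -0.08, and Dmc1, the recombinase that repairs them, of -0.07 and -0.09.

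The 3 PIWI genes and the other genes of their pathway named here lay under the floor in every array. Piwil1 had a range of 4.81 to 5.18 over all arrays, Piwil2 of 3.93 to 4.62 and Piwil4 of 3.5 to 4.28. Their 6 changes, 3 genes in 2 subtypes, ran from -0.09 to 0.07, and none passed. The Tudor proteins that gather the pathway's factors were similar, with changes of -0.09 and 0.03 for Tdrd1 and of 0.03 and 0.13 for Tdrd9. Mov10l1, the helicase that starts piRNA production, had differences of -0.02 and -0.17, and Asz1, a scaffold at mitochondria, of -0.01 and -0.14. Mael, needed for transposon silencing, had a difference of 0.01 (adjusted p = 0.993) in D1 and of -0.26 (adjusted p = 0.0987) in D2, from 3.53 ± 0.26 (SD, n = 7) to 3.28 ± 0.15 (SD, n = 7).

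Among the testis genes, Tex15, a factor in meiotic recombination and transposon silencing, had the highest change of any member in D1 neurons. Its level was 5.34, 5.50 and 5.74 in D1 controls and 5.47, 5.87 and 6.02 in D1 mutants, and 1 mutant array passed the floor. The groups overlapped and the change of 0.29 (SE 0.104, adjusted p = 0.191) did not pass. In D2 neurons its change was 0.02. Tex14, a protein of the bridges between germ cells, had differences of 0.02 and 0.04, Tex11, an X-linked meiosis gene, of -0.05 and 0.07, and Tex101, a surface protein of germ cells, of -0.03 and -0.07. Slc25a31, the ADP/ATP carrier of the testis, had differences of -0.11 and 0.17, and Taf7l, a testis subunit of the TFIID complex, of -0.02 and -0.05.

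Brdt, a bromodomain protein of the testis that reads acetylated histones, was above the floor on 1 probe set and far under it on the others. Its brightest probe set had means of 7.30 and 7.31 in D1 controls and mutants and of 7.42 and 7.49 in D2. The other 2 had means of 4.57 and 3.77 in D1 controls. The probe sets disagree on whether Brdt was detected, while in each of them the change in the mutants did not pass. Of the members with more than 1 probe set, Asz1, Dmc1 and Piwil4 were under the floor on all of theirs.

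Other genes of the same biology were read from lists chosen with earlier results of these data known. Of 56 measured genes among 67 further germline and meiosis genes, 2 rose and 0 fell in D1 mutants, and 2 rose and 1 fell in D2 mutants. Their median change was -0.017 in D1 and -0.037 in D2. Over all genes, 2.35% rose and 0.759% fell in D1, and 5.84% rose and 2.64% fell in D2. Of the 56 genes, the same 2, Gtsf1 and Majin, rose in both mutants, and both left background in both at the floor of 6. With the olfactory receptor floor of 6.27 both did so in D2 and neither in D1, and with a floor of 5 or 7 neither did in either subtype. Gtsf1, a partner of PIWI proteins, had means of 5.59 and 6.16 in D1 controls and mutants (0.63, SE 0.0979, adjusted p = 9.74e-05) and of 5.96 and 6.48 in D2 (0.49, SE 0.0916, adjusted p = 0.000632). Its D1 mutant arrays, 6.01 to 6.26, were all above its D1 control arrays, 5.14 to 5.88, and the D2 groups overlapped. With the mean of all its probe sets, Gtsf1 rose by 0.33 in D1 and by 0.25 in D2.

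Majin, which tethers telomeres to the nuclear envelope in meiosis, went from 5.75 to 6.11 in D1 (0.39, SE 0.0865, adjusted p = 0.00781) and from 5.95 to 6.41 in D2 (0.44, SE 0.0809, adjusted p = 0.000493). In D1 its call was lost without the D1 control saline array with replicate number 1 (0.35, adjusted p = 0.0952) and when the array described as a control was counted as one (0.39, adjusted p = 0.0555). With the arrays of 1 drug alone, where fewer arrays enter, Majin in D1 was 0.44 (adjusted p = 0.0946) on saline and 0.33 (adjusted p = 0.211) on cocaine. On saline arrays alone the changes in D2 were 0.27 (adjusted p = 0.43) for Gtsf1 and 0.37 (adjusted p = 0.0886) for Majin. Mei1, needed for meiotic breaks, fell by 0.38 (SE 0.0789, adjusted p = 0.00207) in D2 neurons, from 6.02 to 5.66, and its change in D1 was -0.08 (adjusted p = 0.821). In D2 it was -0.46 (adjusted p = 0.0566) on saline and -0.30 (adjusted p = 0.126) on cocaine arrays alone. Of 32 late spermatid and sperm genes, 0 rose and 0 fell in either mutant in limma. At an unadjusted p under 0.05, 0 were higher and 4 lower in D1, and 0 were higher and 3 lower in D2. The lower ones made up 12.5% and 9.38% of the list, against 4.67% and 8.62% of all genes. Of all genes, 6.87% and 12.6% were higher. Of 13 measured oocyte genes, 0 rose and 0 fell in limma, and 0 had an unadjusted p under 0.05 in either direction in either mutant.

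**Figure D4:**
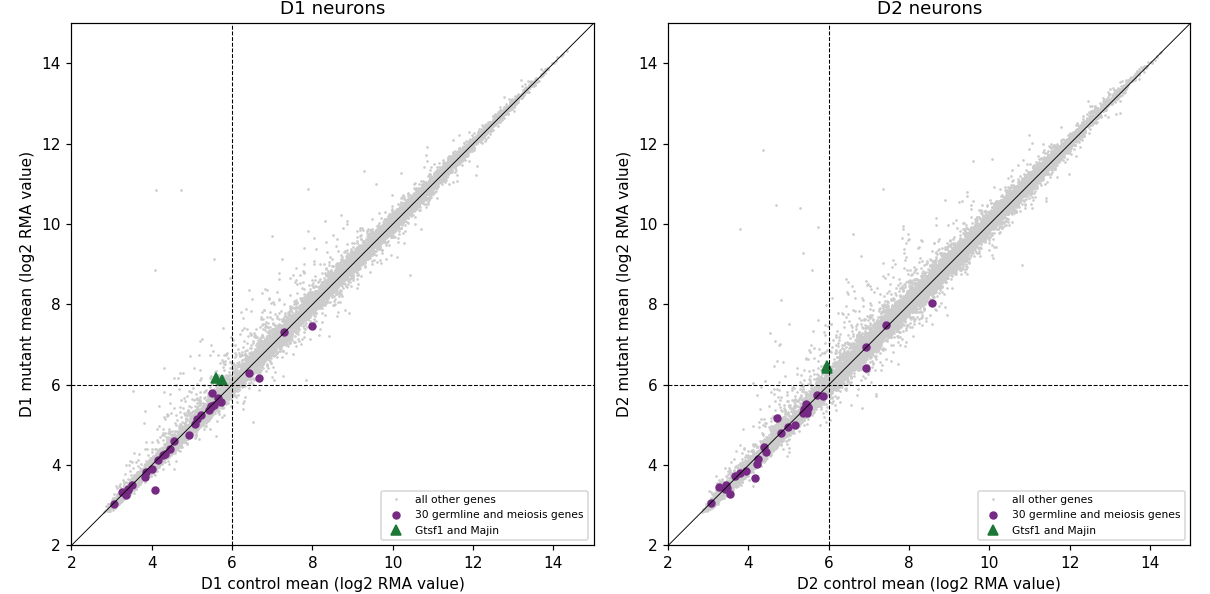
Mean level (log2 RMA value) in mutants (vertical axis) against controls (horizontal axis) for 18193 genes in D1 and D2 neurons; dashed lines mark the floor of 6 and the solid line equal levels. The 30 germline and meiosis genes lie along the line of equal levels or below it, with Syce1 in D2 neurons the clearest exception, and none enters the upper left field, where Gtsf1 and Majin lie.

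Of 24 measured genes known to repress germline genes, 22 did not pass in limma in each mutant. In D1, 0 rose and 2 fell, Ehmt2 and Hdac1, and in D2, 0 rose and 2 fell, Ehmt2 and L3mbtl2. At an unadjusted p under 0.05, 0 were higher and 4 lower in D1, and 2 were higher and 3 lower in D2. The lower ones made up 16.7% and 12.5% of the 24, against 4.67% and 8.62% of all genes. Ehmt2, the gene deleted by design, is counted among the 24 and among the lower ones in each mutant. The higher ones made up 0 and 8.33%, against 6.87% and 12.6%. Hdac1, a histone deacetylase, fell by 0.52 (adjusted p = 0.000743) in D1 from 7.57 to 7.06, and its change in D2 was -0.21 (adjusted p = 0.164). In D1 it was -0.57 (adjusted p = 0.0763) on saline arrays alone, and in D2 it fell by 0.26 (adjusted p = 0.0483) without the array described as a control. L3mbtl2, a subunit of the variant Polycomb complex, fell by 0.19 (adjusted p = 0.0294) in D2 from 9.35 to 9.15, a call lost in 7 of 27 fits that each left out 1 array. Ehmt1, which encodes GLP, had differences of -0.30 (adjusted p = 0.584) and -0.13 (adjusted p = 0.728). E2f6 had differences of 0.05 and 0.04, Mga of -0.07 and 0.00, Max of 0.11 and -0.13 and Dnmt1, the maintenance DNA methyltransferase, of -0.24 and -0.01, and none of these passed.

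The effect of G9a loss on the members was not shown to differ between the neuron types. In the test of the difference itself, 0 of the 30 members passed, against 0.643% of all genes, and at an unadjusted p under 0.05 1 member was higher (Syce1, 3.33% of the 30, against 5.6% of all genes) and 0 were lower, against 4.38%. For Dazl the difference, D2 less D1, was -0.04 with a 95% interval of -0.35 to 0.28, and for Syce2 -0.04 with an interval of -0.27 to 0.19.

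In control mice 4 members differed between the neuron types. Dazl was lower in D1 than in D2 neurons by 0.60 (SE 0.112, adjusted p = 0.000311), Rec8 by 0.51 (SE 0.103, adjusted p = 0.000757) and Syce2 by 0.30 (SE 0.0816, adjusted p = 0.00946), while Tdrd1 was higher by 0.22 (SE 0.0766, adjusted p = 0.0465). Over all genes 8.05% were higher and 10.9% lower in D1 neurons, 18.9% in either direction. Rec8 arrays were 6.14 to 6.57 in D1 controls and 6.67 to 7.13 in D2 controls. How many of all genes had no overlap in this comparison was not counted. The oligodendrocyte markers were also at a lower mean level in D1 controls, 6.96 to 7.44, than in D2 controls, 7.02 to 7.89. With their mean level as a covariate, Dazl differed by -0.34 (adjusted p = 0.122) and Tdrd1 by 0.11 (adjusted p = 0.569). Tdrd1 lay at 3.88 to 4.21 in D1 controls and at 3.71 to 3.86 in D2 controls, far under the floor. Its call was lost in 18 of the 27 fits that each left out 1 array.

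Repeated cocaine moved no member past the test. In D1 neurons 0 of 30 passed, against 0.357% of all genes, and in D2 neurons 0 of 30, against 0.0824%. At an unadjusted p under 0.05, 1 member was higher and 0 were lower in each subtype in limma. Of all genes, 7.2% were higher and 2.21% lower in D1 and 2.84% and 5.02% in D2, against 3.33% and 0 of the members. These were Syce2 in D1 (0.26, adjusted p = 0.208) and Slc25a31 in D2 (0.25, adjusted p = 0.498).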

How the data were processed

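Ribosome-bound striatal RNA from 27 mice was hybridised to Affymetrix whole-genome mouse arrays. The values of 45101 probe sets were deposited on the log2 scale. Per the submitters' processing notes, the authors computed them by RMA with Affymetrix Expression Console 1.1. RMA forces the arrays to share a distribution and compresses low signals. Of the probe sets, 34945 had a single symbol in the array annotation, 932 several and 9160 none, and 64 were controls.

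The 8 groups of subtype, genotype and drug each had a mean in a limma fit (limma 3.58.1, R 4.3.3) of all arrays, without a filter and with Benjamini-Hochberg adjustment over 18193 genes at 0.05. Genotype contrasts weight the drugs equally, so a fitted change can differ from the difference of the printed means. The fit was checked on simulated data with 200 changed genes. Values are read from the array signal, so the number of arrays limits the precision. The oligodendrocyte covariate, every probe set on its own and the limit on CG were added after the data were seen. The members, gene lists and tests were chosen with earlier results of these data known. Genes named with array values passed a genotype test, left background or had no overlap between genotypes; from each other list, every gene past a genotype test was named. Sycp3, Tex15, Ddx4, Rec8, Brdt, Zfp941 and the repressors that did not pass were chosen after their values were seen. RNA quality, read as 3′ minus 5′ signal of control transcripts, had means of 2.29 and 2.30 in D1 controls and mutants and of 2.20 and 2.22 in D2.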

Additional observations from a re-analysis of the deposited data

Results flagged for a closer look

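In 6 of the 120 groups of 4 arrays that were examined, 1 array stood apart from the other 3: its gap to the nearest of them, divided by the range of the group, was above the 95% critical value of Dixon's test. At that level chance flags about 1 in 20 groups. Sycp3 was 4.92 in D2 control cocaine replicate 3 and 3.51 to 3.63 in the other arrays of that group. Dmc1 was 4.60 in the same array and 4.40 to 4.43 in the others. Taf7l was 3.70 in D1 control cocaine replicate 3 against 3.29 to 3.36, and 3.60 in D1 mutant cocaine replicate 4 against 3.36 to 3.39. Asz1 was 5.34 in D1 mutant cocaine replicate 4 against 5.09 to 5.12. Dppa3 was 5.51 in D2 control cocaine replicate 2, and the other 3 arrays were all at 5.47. All 6 values were under the floor of 6, and 3 of them came from arrays with a Ttr level over 9.5.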

How the results depend on the processing

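The count of 2 members that rose or fell in D1 mutants became 4 with array weights (Dazl, Syce2 and Sycp3 fell, Sycp3 at -0.79, adjusted p = 0.0273, and Tex15 rose, 0.35, adjusted p = 0.022), 0 on saline arrays alone and 1 on cocaine arrays alone, and it was 2 in each of 27 fits without 1 array. In D1 Dazl was -0.53 (adjusted p = 0.0829) on saline and -0.51 (adjusted p = 0.1) on cocaine arrays alone, where fewer arrays enter. The count of 3 in D2 mutants lay between 2 and 4 under every alternative run and between 3 and 4 without 1 array. It was 2 with the filter on low values, which leaves Syce1 untested. The genes behind it changed as well. On saline arrays alone Syce1 did not pass in D2 (0.48, adjusted p = 0.102) and Sycp3 did (-0.95, adjusted p = 0.000785). On cocaine arrays alone Dazl did not pass in D2 (-0.47, adjusted p = 0.0858). Sycp3 also passed in D2 with the oligodendrocyte covariate (-1.07, adjusted p = 0.0179). In D1 Sycp3 passed without the 3 arrays with high Ttr (-0.78, adjusted p = 0.0247). The 4 members that differed between neuron types in controls became 2 with the oligodendrocyte covariate and 3 to 4 without 1 array, and Syce2 there was -0.24 (adjusted p = 0.0861) when the array with the control source name was counted as a control. The 0 members that left background became 1, Syce1 in D2, with a floor of 5, and stayed 0 with a floor of 7, with the olfactory receptor floor and without 1 array. The counts of 0 for the interaction and for cocaine were 0 in all alternatives run. No value that passed its test changed sign. Cyclic loess moved the share of higher calls between neuron types in controls from 42.6% to 53.4% over all genes, with 4 members called under both. Sycp2 in D2 (-0.24, adjusted p = 0.0155) passed without D2 mutant cocaine replicate 2, and Mael in D2 was -0.31 (adjusted p = 0.0347) without D2 control cocaine replicate 4 and -0.33 (adjusted p = 0.033) without D2 control saline replicate 2. L3mbtl2 in D2 lost its call in 7 of 27 fits without 1 array. Where no cause is named, the cause was not tested. Equal replicate numbers are not known to pair mice. For a mutant and a control array of the same subtype, drug and number, deviations from the group means were correlated over all genes. Of 13 such pairs of arrays, 3 had a correlation over 0.1, with a range of -0.31 to 0.18. With so few arrays per group, these values cannot show whether mice were paired. With the replicate number as a block, the counts were 2 in D1, 3 in D2, 4 between neuron types in controls and 0 for the interaction and for cocaine.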
